A study of Mus musculus with 8 samples.

Results

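Genes of the bone morphogenetic protein (BMP) and transforming growth factor beta (TGF-beta) pathways were examined in single mouse embryos that lacked or retained Isl1, a LIM-homeodomain factor made by cardiac progenitors. The 38 genes were 9 ligands, 10 receptors, 8 SMADs, 5 extracellular antagonists or modulators, and 6 Id and Msx genes that respond to BMP signals. They were chosen by symbol from the deposited table of 20701 gene symbols, and all 38 were found and were expressed highly enough to be tested. RNA sequencing was performed on pharyngeal mesoderm and hearts dissected at E8.75 (6 somites) from 4 knockout embryos (Isl1-/-) and 4 wild-type embryos, all of the C57BL/6 strain, with 1 embryo per library. The labels name no Cre driver, transgene or treatment for either genotype, and the structure of the knockout allele is not given in the sources used here.

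BMP and TGF-beta ligands are secreted dimers that bring together type I and type II serine/threonine kinase receptors. The activated type I receptor phosphorylates receptor SMADs, SMAD1, SMAD5 and SMAD9 downstream of BMPs and SMAD2 and SMAD3 downstream of TGF-beta and activin, which enter the nucleus with SMAD4. SMAD6 and SMAD7 are inhibitory SMADs that the pathway induces as feedback, and secreted proteins such as Noggin, Chordin and Gremlin bind ligands outside the cell. In the early heart BMPs promote myocardial differentiation, and BMP and TGF-beta signals together pattern the outflow tract and the cardiac cushions.

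Totals over 1 transcript per gene ranged from 18916452 to 26153039 reads per library, with knockout embryos 3 and 4 the shallowest. Isl1, the knocked-out gene, had 9.72, 9.76, 26.9 and 23.3 counts per 1e6 reads (CPM) in the wild-type libraries and 2.32, 2.16, 1.78 and 2.40 CPM in the knockout libraries (here and throughout in the order of embryos 1 to 4). The genotypes did not overlap, and the knockout mean was 12.4% of the wild-type mean. The 12 cardiomyocyte and 8 pharyngeal mesoderm markers were detected in every library. Summed cardiomyocyte markers ran from 3180 to 4740 CPM in wild-type and from 1710 to 2590 CPM in knockout embryos, with 10 of 12 markers lower at a false discovery rate (FDR) of 0.05. Of the 8 endothelial, 9 endoderm, 8 neural, 6 neural crest, 7 erythroid, 8 caudal and 8 pharyngeal mesoderm markers, 0 passed the edgeR FDR in either direction. At an unadjusted p-value under 0.05, 1 endothelial, 1 neural and 3 pharyngeal mesoderm markers did, where 10.1% of all genes were lower and 7.37% higher. The DESeq2 Wald test called 1 of these lists' markers, the neural gene Hes5. The caudal markers Cdx4, Hoxa9 and Hoxa10 had no reads in at least 1 library. The summed levels of these 7 lists overlapped between the genotypes in every case, for example 272 to 1280 CPM in wild-type and 238 to 1960 CPM in knockout embryos for endoderm and 365 to 2330 against 1240 to 3070 CPM for erythroid cells. Gene by gene, most estimates were higher in knockout embryos for erythroid (7 higher, 0 lower), neural crest (6 and 0), neural (7 and 1) and endoderm markers (8 and 1). The 5 caudal markers tested were also higher. Endothelial markers were mostly lower (1 higher, 7 lower), and pharyngeal mesoderm markers were split (4 and 4). In dissected tissue, fewer cells of a type and less RNA per cell cannot be told apart. Y-linked reads were present in 1 of 4 wild-type and 3 of 4 knockout embryos, and knockout embryo 2 was labelled total RNA where the 7 other libraries were labelled polyA RNA.

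The 250 bases before the RefSeq start of 4 members are shown because Bmp5 and Bmper were lower in the knockout, while Smad6 and Id2, which BMP signals induce, had wild-type and knockout values that did not overlap. Capitals mark the 6 letters GGCGCC, a GC-rich sequence bound by BMP SMADs, and the 5 letters CAGAC or its reverse complement GTCTG, a SMAD-binding sequence. The sequences are from RefSeq (table build GRCm38.p6) and were placed on mm9 by exact match: Bmp5 at chr9:75622922-75623171 (plus strand), Bmper at chr9:23027270-23027519 (plus strand), Smad6 at chr9:63869867-63870116 (minus strand) and Id2 at chr12:25780958-25781207 (minus strand). Each is written 5′ to 3′ on the strand of its gene.
Bmp5: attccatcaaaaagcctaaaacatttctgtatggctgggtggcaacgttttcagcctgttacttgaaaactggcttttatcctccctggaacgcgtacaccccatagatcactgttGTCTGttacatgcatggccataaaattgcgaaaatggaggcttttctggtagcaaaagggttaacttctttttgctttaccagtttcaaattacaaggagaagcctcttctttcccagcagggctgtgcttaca
Bmper: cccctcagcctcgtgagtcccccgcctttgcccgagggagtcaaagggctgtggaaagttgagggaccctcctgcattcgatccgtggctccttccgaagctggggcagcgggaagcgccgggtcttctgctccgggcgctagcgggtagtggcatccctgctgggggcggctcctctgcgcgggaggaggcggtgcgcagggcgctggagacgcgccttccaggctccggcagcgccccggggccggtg
Smad6: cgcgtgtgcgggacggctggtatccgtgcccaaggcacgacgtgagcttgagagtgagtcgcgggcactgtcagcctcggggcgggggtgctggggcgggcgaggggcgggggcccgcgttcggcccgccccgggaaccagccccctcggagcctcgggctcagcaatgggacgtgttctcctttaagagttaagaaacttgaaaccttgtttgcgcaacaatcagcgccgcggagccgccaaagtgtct
Id2: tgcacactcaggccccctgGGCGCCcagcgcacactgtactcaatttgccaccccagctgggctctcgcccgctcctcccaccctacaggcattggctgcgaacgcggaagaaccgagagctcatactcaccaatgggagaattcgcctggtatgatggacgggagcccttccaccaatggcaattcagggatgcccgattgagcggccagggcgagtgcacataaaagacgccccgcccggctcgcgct
The Bmp5 window had a GC content of 42.8% and held a single SMAD-binding sequence. The Bmper, Smad6 and Id2 windows were richer in GC, at 71.6%, 66.8% and 62.8%, against a median of 52.4% over all promoters. GGCGCC was found in the Id2 window and in 9.59% of all 32851 promoter windows of this length, and CAGAC on either strand in 42.2% of them. Among the 28 members with a promoter in the table, 9 held GGCGCC and 11 held CAGAC on either strand. A member counted if any of its windows held the sequence, whereas the shares above are per window. The member counts and those shares are therefore not like for like. The 2 sequences can share an end base, and a match describes letters, not a bound site. The members without an entry were Bmp2, Bmp7, Tgfb3, Tgfbr3, Smad2, Smad4, Smad7, Id1, Nog and Fst.

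Levels were first compared between genes per transcript length, as the deposited RPKM, reads per kilobase of length and per 1e6 reads summed over all 31507 transcript entries. That sum counts a read once for each entry it falls in and was 1.68 to 1.69 times the totals above, so RPKM and CPM have different denominators. Among ligands in wild-type embryos, Bmp5 was the most abundant at 9.53 ± 0.631 RPKM (SD, n = 4), followed by Bmp7 (8.17 ± 0.594), Tgfb2 (6.75 ± 1.13), Bmp4 (5.58 ± 0.925) and Bmp2 (3.93 ± 0.911). Tgfb1 (2.67 ± 0.635), Bmp10 (1.81 ± 0.667), Bmp6 (1.52 ± 0.340) and Tgfb3 (0.773 ± 0.0832) were lower. The ranges of neighbours in this order overlapped between embryos except for Bmp6 and Tgfb3. Among receptors, Bmpr1a, the main type I BMP receptor of mesoderm, stood at 35.2 ± 2.0 RPKM and Tgfbr1, the type I TGF-beta receptor, at 24.9 ± 1.65, with no overlap between them. The type II receptor Acvr2b followed at 13.5 ± 2.53. The other BMP receptors were rarer, with Bmpr2 at 2.91 ± 0.133 and Bmpr1b at 1.09 ± 0.144 RPKM. Smad4, the partner of all receptor SMADs, was the most abundant SMAD at 27.6 ± 1.57 RPKM, and the inhibitory Smad6 (3.96 ± 0.256) and Smad7 (2.41 ± 0.574) lay below all receptor SMADs except Smad9 (1.45 ± 0.250). Id2 (123 ± 18.9 RPKM) and Id3 (100 ± 6.04) were the most abundant of all 38 genes and overlapped each other, while Id4 was at 2.35 ± 0.250. Among extracellular antagonists Fst, which encodes the activin-binding protein Follistatin, was highest at 11.2 ± 6.06 RPKM and Chrd, which encodes Chordin, lowest at 0.402 ± 0.0864. Reads were counted without regard to strand. Exons of Bmp4, Bmp5, Bmp6, Bmpr1a, Acvr2a, Chrd and Id4 overlap genes on the opposite strand, and their levels may include reads of those genes.

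**Figure D1:**
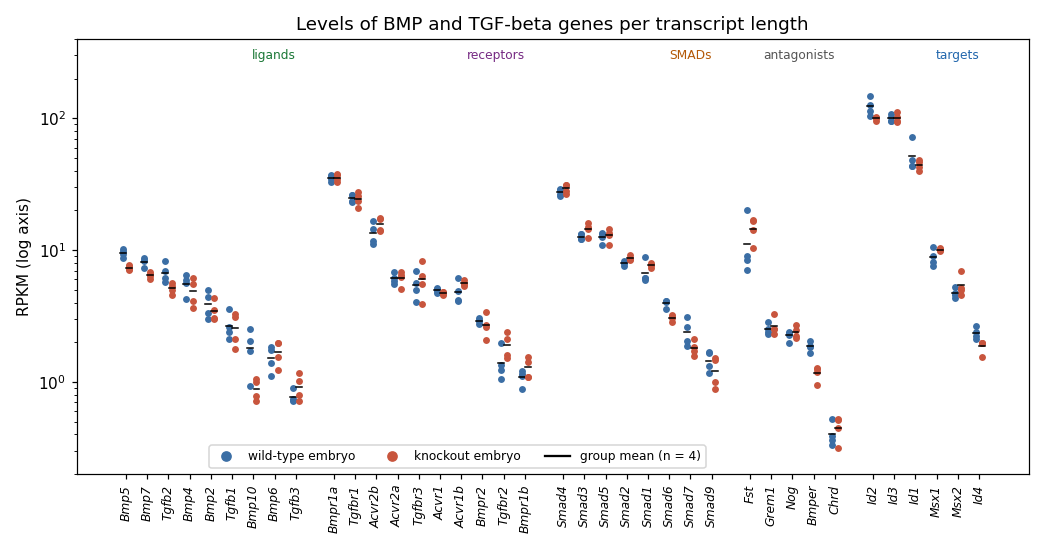
RPKM on a log axis for each of the 38 genes, grouped as ligands, receptors, SMADs, antagonists and targets and ordered within each group by the wild-type mean; points are single embryos and black lines group means (n = 4). Id2 and Id3 lie near 100 RPKM, Chrd below 1 RPKM, and the wild-type and knockout points of Bmp5, Bmp7 and Bmper separate.

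The genotypes were then compared gene by gene. The BMP ligands Bmp5 and Bmp7, and Bmper, which encodes a secreted BMP-binding modulator, were lower in knockout embryos. These 3 of 38 members (7.89%) passed an edgeR FDR of 0.05, each lower, against 0.867% of the 14075 genes tested that were lower at that threshold. The thresholds of the study, 1.5-fold and an unadjusted p under 0.05, were applied here to the edgeR fit, where the study used DESeq2. They were met by 2 members, Bmper and Bmp10, both lower (5.26% of members, against 2.26% of all genes). At an unadjusted p-value under 0.05 alone, 9 members were lower (23.7%, against 10.1% of all genes) and 0 were higher (against 7.37%). Wild-type and knockout CPM did not overlap in 8 members that were lower (21.1%, against 6.33% of all genes) and in 1 that was higher (2.63%, against 3.96%). The estimate was below 0 in 20 members (52.6%, against 48.8% of all genes), and the median log2 fold change was -0.04 over the members and 0.01 over all genes tested. The members were chosen with earlier results of these data known, so these shares are a description and not a test of the pathway.

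**Figure D2:**
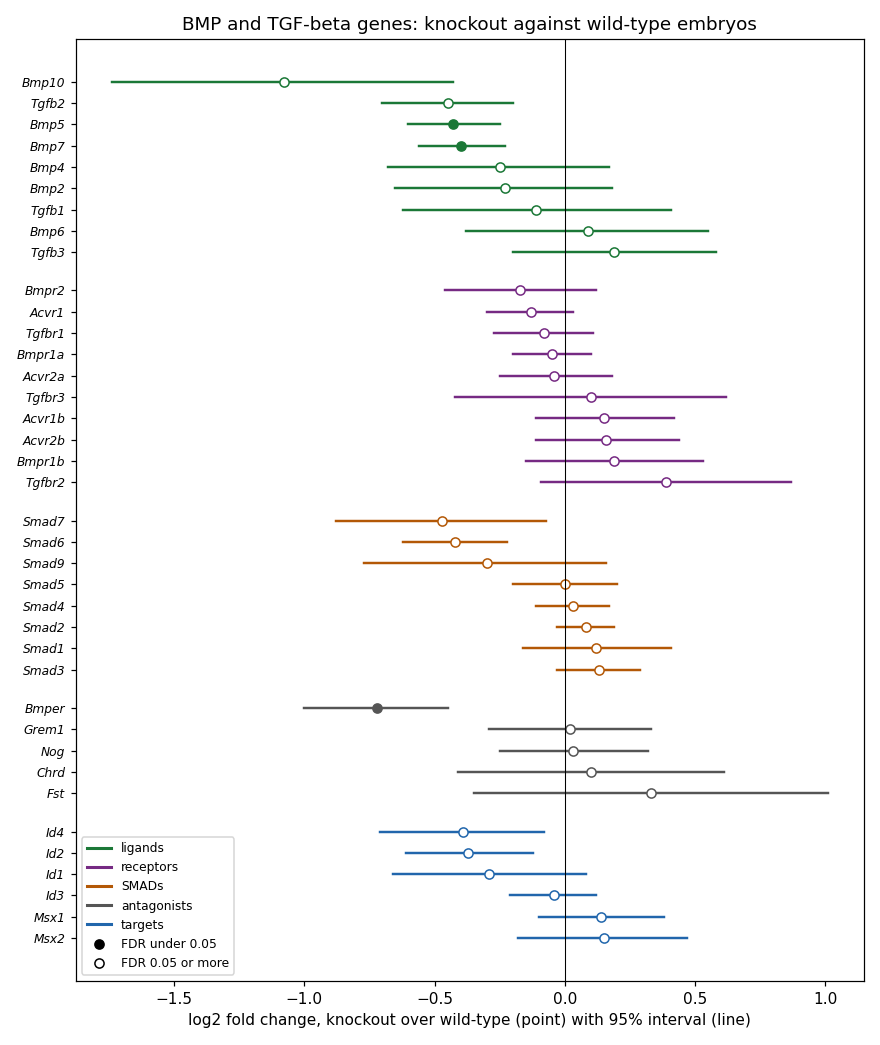
log2 fold change of each of the 38 genes, knockout over wild-type, with its 95% interval from the edgeR fit, coloured by class; filled points have an FDR under 0.05. Bmp5, Bmp7 and Bmper are filled and lie between -0.72 and -0.40, and the intervals of all 10 receptors include 0.

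Bmp5 had 62.6, 68.3, 64.1 and 55.8 CPM in the wild-type libraries against 44.1, 49.5, 45.5 and 47.1 CPM in the knockout libraries. Every knockout embryo lay below the lowest wild-type embryo, and the knockout mean was 74.3% of the wild-type mean. The estimated log2 fold change was -0.43 (SE 0.08, 95% interval -0.60 to -0.25, edgeR FDR 0.0372). Exons of Bmp5 (NM_007555, chromosome 9, 75623171 to 75748117, mm9) overlap the antisense gene Gm16662 in the annotation, and reads were counted without regard to strand. Bmp7 (NM_007557, chromosome 2, 172693513 to 172765822) had 46.7, 53.3, 54.6 and 51.3 CPM in wild-type and 41.2, 37.1, 38.8 and 39.5 CPM in knockout embryos. The groups did not overlap, and the 4 knockout embryos lay close together. Its log2 fold change was -0.40 (SE 0.07, 95% interval -0.56 to -0.23, edgeR FDR 0.0413). The calls were close to the threshold, and with 1 embryo left out in turn Bmp5 kept its call in 3 of 8 fits and Bmp7 in 1 of 8. Bmp5 passed without wild-type embryo 3, wild-type embryo 4 or knockout embryo 2 and ran up to an FDR of 0.120 (without wild-type embryo 1 and without knockout embryo 1). Bmp7 passed without wild-type embryo 3 and ran up to 0.123 (without wild-type embryo 2 and without knockout embryo 4), while the estimates stayed between -0.48 and -0.39 for Bmp5 and between -0.44 and -0.37 for Bmp7.

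The remaining ligands differed in direction and spread. Bmp10, a ligand of the trabeculating myocardium, had 5.80, 4.74, 2.11 and 3.84 CPM in wild-type and 2.16, 1.74, 2.30 and 1.57 CPM in knockout embryos. Wild-type embryo 3 lay among the knockout embryos, and it also had the lowest summed cardiomyocyte markers of the wild-type embryos, 3180 CPM where its group mates had 4350 to 4740 CPM. The same embryo was also lowest of the wild-type embryos in erythroid markers (365 against 1150 to 2330 CPM) and highest in endoderm markers (1280 against 272 to 809 CPM). The part of cardiomyocyte or other cell content in this result was not tested. The log2 fold change of Bmp10 was -1.08 (SE 0.29, 95% interval -1.74 to -0.43, edgeR FDR 0.113, unadjusted p 0.0043), and -1.30 without wild-type embryo 3 (FDR 0.0172). Without any other single embryo the edgeR FDR of Bmp10 ran from 0.163 to 0.306. Tgfb2, the TGF-beta ligand of the outflow tract and cushions, had 54.5, 51.1, 72.2 and 59.2 CPM in wild-type and 44.6, 42.4, 38.9 and 47.4 CPM in knockout embryos. The groups did not overlap, but the FDR was 0.0930 (log2 fold change -0.45, SE 0.11). Bmp2 and Bmp4, which induce cardiac fate in mesoderm, overlapped between the genotypes, with log2 fold changes of -0.23 (95% interval -0.65 to 0.18) and -0.25 (-0.68 to 0.17). Tgfb1 (-0.11), Bmp6 (0.09) and Tgfb3 (0.19) also did not pass.

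Bmper (NM_028472, chromosome 9, 23027520 to 23289646, plus strand) had 11.0, 12.3, 13.3 and 12 CPM in wild-type and 7.93, 6.05, 7.95 and 7.49 CPM in knockout embryos. The highest knockout embryo lay below the lowest wild-type embryo. The log2 fold change was -0.72 (SE 0.12, 95% interval -1.0 to -0.45, edgeR FDR 0.0266). With 1 embryo left out Bmper passed in 2 of 8 fits, those without wild-type embryo 3 or knockout embryo 2, and its FDR reached 0.0946 without knockout embryo 4, with estimates from -0.77 to -0.64. The other 4 antagonists did not pass. Fst had 42.0, 35.2, 98.4 and 43.1 CPM in wild-type and 66.5, 79.2, 48.9 and 79.7 CPM in knockout embryos. Wild-type embryo 3 was higher than every knockout embryo, and the other wild-type embryos were lower than every knockout embryo. The log2 fold change of Fst was 0.33 (95% interval -0.35 to 1.01, edgeR FDR 0.620), and 0.78 without wild-type embryo 3 (FDR 0.0424). Without any other single embryo Fst did not pass, with edgeR FDRs from 0.513 to 0.843. Leaving out wild-type embryo 3 also raised the calls over all genes from 137 to 490. Nog (0.03, 95% interval -0.25 to 0.32), Grem1 (0.02, -0.29 to 0.33) and Chrd (0.10, -0.41 to 0.61), which encode the BMP-binding proteins Noggin, Gremlin and Chordin, had estimates near 0, and Chrd rested on 44 to 71 reads per library.

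**Figure D3:**
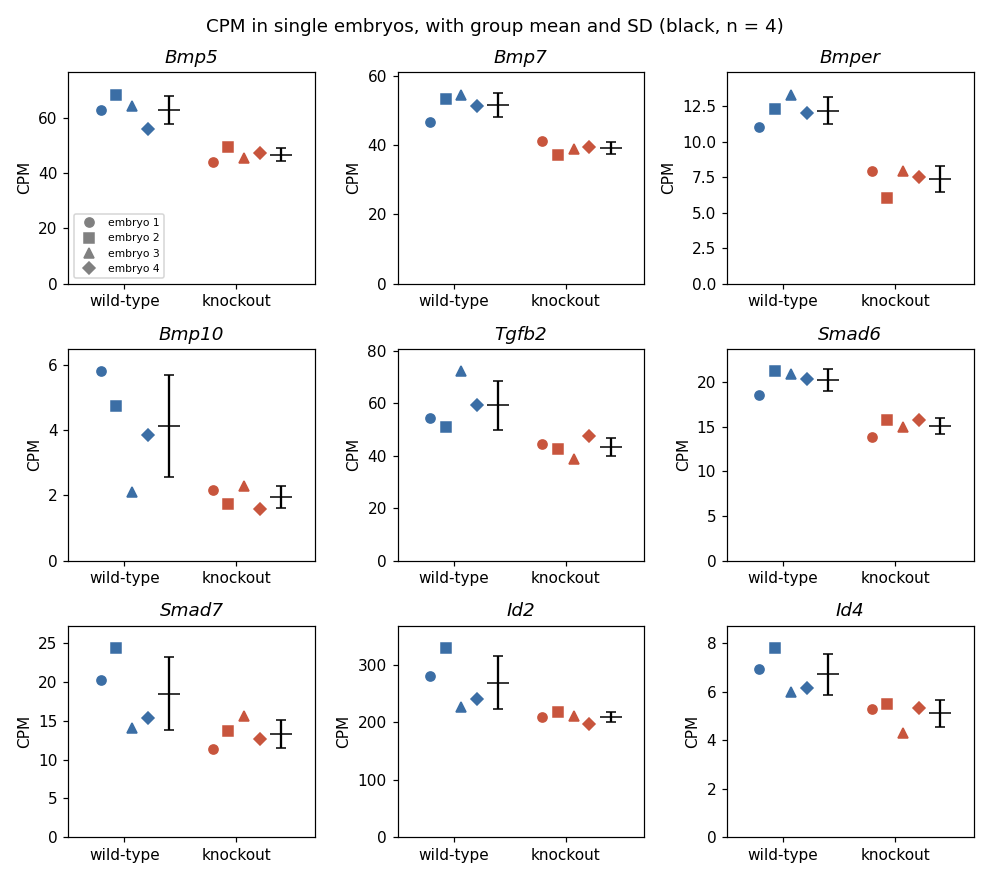
CPM in each of the 4 wild-type and 4 knockout embryos for 9 genes with an unadjusted p-value under 0.05, with each group's mean and SD in black and 1 symbol per embryo number. Wild-type and knockout points do not overlap for Bmp5, Bmp7, Bmper, Tgfb2, Smad6, Id2 and Id4, and overlap for Bmp10, where wild-type embryo 3 lies among the knockout points, and for Smad7, where knockout embryo 3 lies above wild-type embryos 3 and 4.

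None of the 10 receptors passed the edgeR FDR or an unadjusted p-value under 0.05, and by the DESeq2 Wald test 0 passed an adjusted p-value of 0.05. Their log2 fold changes ran from -0.17 for Bmpr2, the type II BMP receptor, to 0.39 for Tgfbr2, the type II TGF-beta receptor (95% interval -0.09 to 0.87). The abundant type I receptors were estimated tightly, Bmpr1a at -0.05 (95% interval -0.20 to 0.10) and Tgfbr1 at -0.08 (-0.27 to 0.11). Acvr1, a type I receptor for BMP7 among other ligands, had 26.9, 29.9, 27.3 and 28.1 CPM in wild-type and 24.7, 26.5, 24.8 and 26.1 CPM in knockout embryos. The groups did not overlap, but the difference was small (log2 fold change -0.13, SE 0.07, edgeR FDR 0.380). In the deposited RPKM, which is not scaled by TMM, Acvr1 overlapped, with 4.7 to 5.18 in wild-type and 4.55 to 4.85 in knockout embryos. Tgfbr3, which encodes the co-receptor betaglycan, had the highest coefficient of variation among receptors in knockout embryos, 31.4%, with values from 38.6 to 83.9 CPM.

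None of the 8 SMADs passed the edgeR FDR. At an unadjusted p-value under 0.05, 2 of them, both inhibitory, were lower and 0 higher, against 10.1% and 7.37% of all genes. By the DESeq2 Wald test Smad6 passed. Smad6, which preferentially restrains BMP receptors, had 18.5, 21.2, 20.9 and 20.3 CPM in wild-type and 13.9, 15.8, 15 and 15.7 CPM in knockout embryos. The groups did not overlap and the spread within each was narrow, with an edgeR FDR of 0.0638 (log2 fold change -0.42, SE 0.09) and a DESeq2 adjusted p of 0.00299. Smad7, which restrains both branches, had 20.2, 24.3, 14.1 and 15.3 CPM in wild-type and 11.4, 13.7, 15.6 and 12.6 CPM in knockout embryos. Knockout embryo 3 lay above wild-type embryos 3 and 4, and the estimate was -0.47 (SE 0.18, edgeR FDR 0.223). The receptor SMADs and Smad4 had estimates between -0.30 (Smad9, 95% interval -0.77 to 0.16) and 0.13 (Smad3, -0.03 to 0.29). Smad2 had 121, 117, 119 and 121 CPM in wild-type and 125, 125, 124 and 132 CPM in knockout embryos. It was the 1 member with every knockout embryo above every wild-type embryo, with a log2 fold change of 0.08 (95% interval -0.03 to 0.19, edgeR FDR 0.430).

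Of the 6 genes that respond to BMP signals, 0 passed the edgeR FDR, and Id2 passed by the DESeq2 Wald test. At an unadjusted p-value under 0.05, 2 were lower and 0 higher, against 10.1% and 7.37% of all genes. Id genes encode helix-loop-helix proteins without a DNA-binding domain, which hold back differentiation factors. Id2 had 281, 329, 226 and 240 CPM in wild-type and 209, 218, 212 and 197 CPM in knockout embryos. The groups did not overlap, and wild-type embryos were spread more widely than knockout embryos (log2 fold change -0.37, SE 0.11, edgeR FDR 0.137, DESeq2 adjusted p 0.0308). Id4 had 6.93, 7.80, 5.98 and 6.16 CPM in wild-type and 5.30, 5.51, 4.29 and 5.34 CPM in knockout embryos. These did not overlap either (log2 fold change -0.39, SE 0.14, edgeR FDR 0.204), and exons of Id4 overlap the antisense gene A330033J07Rik. Id1 (-0.29, 95% interval -0.66 to 0.08) and Id3 (-0.04, -0.21 to 0.12) overlapped between the genotypes. The homeobox genes Msx1 (0.14, 95% interval -0.10 to 0.38) and Msx2 (0.15, -0.18 to 0.47) had estimates above 0, and that of Msx2 was -0.01 without knockout embryo 2, which held its highest value, 25.4 CPM.

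The balance between related genes was compared within each library for 8 pairs, a measure that library scaling does not change. The log2 ratio of Tgfb2 to Tgfb3 reads was 3.67, 3.55, 3.79 and 3.82 in wild-type and 2.98, 3.38, 3.12 and 2.88 in knockout embryos. Every knockout embryo lay below every wild-type embryo, a difference of -0.62 (exact two-sided permutation p = 0.0286, the smallest possible with 4 against 4, n = 4 each), and the adjusted p over the 8 pairs was 0.2286. A pair that alone reaches the smallest exact p among 8 cannot have a lower adjusted value, so the adjusted p cannot decide this pair. The other 7 pairs overlapped between the genotypes. The ratio of Smad6 to Smad7 differed by 0.03 (exact p = 0.9143, adjusted p = 0.9143), that of Bmp2 to Bmp4 by 0.05 (exact p = 0.6286, adjusted p = 0.9143) and that of Bmp10 to Bmp4 by -0.73 (exact p = 0.2, adjusted p = 0.5333). The differences for Msx1 to Msx2 (0.02), Nog to Chrd (-0.06), Id1 to Id2 (0.09) and Id3 to Id1 (0.21) had adjusted p-values of 0.9143, 0.9143, 0.6857 and 0.5333 in the same exact permutation test.

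**Figure D4:**
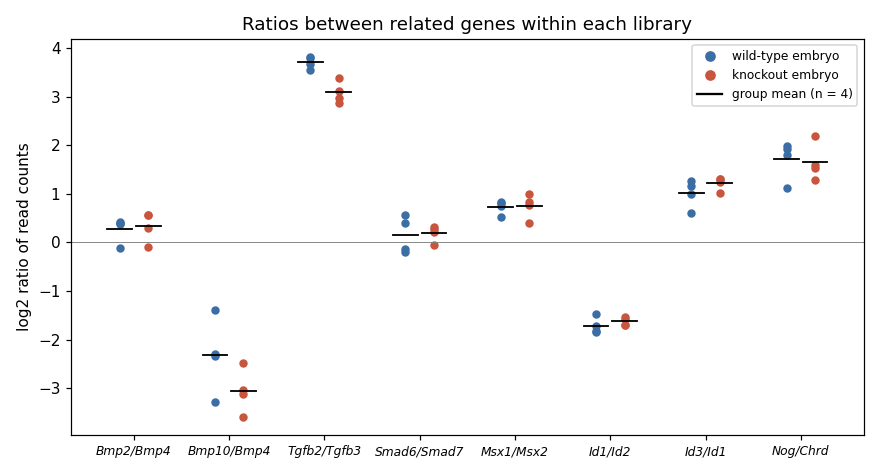
log2 ratio of the read counts of 2 related genes within each library, for 8 pairs; points are single embryos and black lines group means (n = 4). For Tgfb2/Tgfb3 the knockout points, 2.88 to 3.38, lie below the wild-type points, 3.55 to 3.82, and in the other pairs the points overlap.

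The wider pathway was examined as a list of 80 further genes, 60 of which were expressed highly enough to be tested. Of the 60, 1 passed the edgeR FDR (against 0.973% of all genes). This was Tdgf1, which encodes Cripto, a co-receptor for the TGF-beta family ligand Nodal, and which had 7.09, 7.89, 14.4 and 9.73 CPM in wild-type and 2.63, 3.19, 2.46 and 1.66 CPM in knockout embryos. The groups did not overlap (log2 fold change -1.97, SE 0.26, edgeR FDR 0.00704). At an unadjusted p-value under 0.05, 8 of the 60 were lower (13.3%, against 10.1% of all genes) and 2 higher (3.33%, against 7.37%), and the median log2 fold change was -0.06. None of 11 further ligands, 16 extracellular modulators, 15 intracellular regulators and 11 responsive genes that were tested passed the edgeR FDR, where 1, 2, 4 and 2 of them had an unadjusted p-value under 0.05. The DESeq2 Wald test called 4 of the 60 (6.67%, against 5.04% of all genes), Tdgf1, Fkbp1a, Tab1 and Foxh1. By the edgeR log2 fold changes Tab1 was higher in knockout embryos (0.38), and Tdgf1 (-1.97), Fkbp1a (-0.24) and Foxh1 (-0.76) were lower.

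Embryos of a genotype varied most in Fst among the members, with a coefficient of variation of 53.7% in wild-type embryos, followed by Bmp10 at 38%. The same measure was 1.86% for Smad2 and 2.98% for Smad3 in wild-type embryos. The DESeq2 Wald test on the same counts called 7 members, all lower (18.4%, against 3.33% of all genes), namely Bmp5, Bmp7, Bmp10, Tgfb2, Smad6, Id2 and Bmper. With Y-linked reads as a covariate 1 member passed the edgeR FDR, Bmper, and without knockout embryo 2, the library labelled total RNA, Bmp5 and Bmper passed and Bmp7 had an FDR of 0.0806.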

How the data were processed

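RNA of single embryos was sequenced in 8 libraries, and the sample titles gave genotype and replicate number. Per the study's methods the authors mapped reads to mm9 with STAR and counted them over exons of RefSeq transcripts with HOMER on both strands, so the deposited values were raw read counts. The authors computed the deposited RPKM with edgeR, without TMM scaling, over the sum of all 31507 transcript entries. The transcript length column (bases) was used for no test. Tool versions were not given in the sources used here, nor was the handling of reads that map to several places. Columns with the authors' own DESeq2 fold changes and p-values were not used.

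Of 31507 entries the transcript with the most reads was kept for each of 20701 symbols. Among the members 27 had 1 entry and 11 had several, which share reads. Exons of 7 members overlapped another gene in GENCODE vM1, whose assembly NCBIM37 is mm9 and which gave the gene coordinates. Counts were filtered with filterByExpr, scaled by TMM and fitted with the quasi-likelihood model of edgeR 4.0.16 (R 4.3.3) with genotype as its single term. Tests were two-sided, FDRs were Benjamini-Hochberg values over all 14075 genes, standard errors were the absolute log2 fold change divided by the root of the F statistic, and 95% intervals used its t distribution. CPM was scaled by TMM. The model was tested on simulated counts. Log ratios used counts plus 0.5. DESeq2 1.42.0 and limma 3.58.1 (log2(RPKM + 1), a pseudocount of 1 that shrinks changes of low genes) were alternatives, as were other scalings, no filter, the longest transcript, Y-linked reads as a covariate, a replicate block and leaving out each embryo. Tables and plots were made with Python 3.11.15, pandas 2.3.3, numpy 2.4.6 and matplotlib 3.10.9.

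Values per embryo were given for Isl1, for members past the FDR, past 1.5-fold with an unadjusted p under 0.05 or without overlap, and for other pathway genes past the FDR. Values of Smad7 and Fst were added after their values were seen. Members and lists were chosen with earlier results of these data known. Reads carried no molecular identifiers, so precision from depth covers counting error only.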

Additional observations from a re-analysis of the deposited data

Results flagged for a closer look

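The values of 40 genes (the 38 members, Isl1 and Tdgf1) were searched in each genotype for an embryo far from the other 3, and 4 of 80 groups held such an embryo, where chance alone flags about 5% of groups. Wild-type embryo 3 was the embryo in 3 of them. It had 98.4 CPM of Fst where the others of its genotype had 35.2 to 43.1, 46.2 CPM of Smad1 against 31.2 to 32.3, and 5.18 CPM of Tgfb3 against 4.18 to 4.35. In the knockout group, embryo 4 had 132 CPM of Smad2 against 124 to 125.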

How the results depend on the processing

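The DESeq2 Wald test called 709 genes, 7 members and 4 other pathway genes. Limma on log2(RPKM + 1) called 1 member, Bmper, and left 0 members past 1.5-fold with an unadjusted p-value under 0.05, where 8 had that p-value alone. With Y-linked reads as a covariate 1 member passed. With 1 embryo left out, 70 to 490 genes, 0 to 6 members and 1 other pathway gene passed the edgeR FDR, and 2 to 5 members passed 1.5-fold with an unadjusted p-value under 0.05. The highest counts came without wild-type embryo 3. Without wild-type embryo 1 or 2, or knockout embryo 1, 3 or 4, 0 members passed the edgeR FDR while 8 or 9 had an unadjusted p-value under 0.05. Bmp7 did not pass with library totals (FDR 0.0853) or with no filter (0.0569), Bmp5 and Bmp7 did not pass under limma (0.0562 and 0.0944) or with the Y-linked covariate (0.129 and 0.0924), and that covariate moved the estimate of Bmp2 from -0.23 to 0.02. The estimates of Bmp5, Bmp7 and Bmper were below 0 in all of the 16 alternatives. The median of the members stayed within 0.0673, its SD between embryos, of its reported value, and the ratio differences moved by less than the SD between embryos.

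The labels link same-numbered embryos by number alone, and whether they share more is not known. Their deviations from the group means correlated at 0.124, 0.195, 0.0355 and 0.559, and 1 of 4 wild-type embryos correlated best with its own number. With the replicate block 76 genes and 0 members passed the edgeR FDR, 12 members had an unadjusted p-value under 0.05, and Bmp5, Bmp7 and Bmper had FDRs of 0.104, 0.147 and 0.0948. Chrd and Bmp10 had the fewest reads among the members, at most 71 and 139 per library, so their values carry the most counting error.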
